A study of Mus musculus with 14 samples.

Results

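The autophagy and lysosome genes described here are 36 named genes, all of them found by symbol among the 24354 genes of the expression table. They comprise 10 cathepsins, 10 other lysosomal genes, 14 autophagy genes and 2 transcription factor genes, Tfeb and Tfe3, whose products are known activators of lysosomal and autophagy genes. The knockout group was quadriceps muscle labelled HDAC3 knock-out, with 3 RNA-seq libraries. The wild-type group was the same muscle labelled HDAC3 wild-type, with 3 libraries. All 6 libraries came from resting male mice of strain C57B/6 at 4 months of age, kept on normal chow and sampled at ZT10, 10 hours after lights on. How Hdac3 was removed, in which cells, and whether each library is 1 animal are not stated in the labels, so p-values measure a spread between libraries that may be technical.

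The lysosome is the acidic organelle in which proteins, lipids and glycogen are broken down, and cathepsins are its proteases. In autophagy a double membrane closes around part of the cytoplasm and fuses with the lysosome. The ULK1 and Beclin complexes start that membrane, the ATG5, ATG7 and ATG12 conjugation system attaches LC3 and GABARAP proteins to it, and receptors such as p62 and BNIP3 bring in the cargo. Muscle is known for strong autophagy in fasting and denervation, and loss of the acid glucosidase GAA or of LAMP2 causes storage disease of muscle. TFEB and TFE3 switch on lysosomal and autophagy genes through an E-box sequence.

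Levels are FPKM, fragment counts scaled to gene length and library size, as the authors' table gives them per library, so levels of different genes can be compared, and libraries are listed in order of replicate number. Folds are ratios of mean FPKM, knockout over wild type. Log2 fold changes are on the log2(FPKM + 1) scale, with the standard error and adjusted p of limma over 10501 genes that averaged at least 1 FPKM over the 6 libraries. A gene was called at an adjusted p under 0.05, and all 36 members passed the filter on low values. Hdac3 was at 5.51, 6.29 and 8.16 FPKM in knockout muscle, against 33.3, 31.0 and 23.7 FPKM in wild-type muscle. Summed FPKM was 464777 to 495099 in the knockout libraries and 454359 to 484510 in the wild-type libraries. Read numbers are not given, and depth judged from the lowest genes was 0.66 to 0.832 times wild-type replicate 1 in the knockout and 0.831 to 1.02 times in the other wild-type libraries. Wild-type replicate 2 stood apart in neutrophil genes, with S100a8 at 2.15 to 2.70 FPKM in the knockout libraries, against 239.5 FPKM in that library and 1.79 and 4.37 FPKM in the other wild-type libraries.

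In knockout muscle the RNA levels of Ctsl, for cathepsin L, and of Lamp1, for a lysosomal membrane protein, were higher than in wild-type muscle. No other member was called by limma, the genes that start and conjugate the autophagosome included. Limma called 2 of the 36 members higher, Ctsl and Lamp1, a share of 5.56% against 2.30% of all fitted genes. It called 0 lower, against 1.34% of all fitted genes, and in either direction it called 3.65% of all fitted genes; at an unadjusted p under 0.05 limma had 10 members higher and 0 lower, against 11.0% of all fitted genes higher and 8.68% lower. By q-value, the authors' deposited table called 4 members higher, Ctsl, Lamp1, Npc2 and Sqstm1, a share of 11.1% against 5.90% of the 9204 genes tested there. The authors' deposited table called a single member lower, Ctsk, a share of 2.78% against 4.94%, and in either direction 10.8% of its genes. In 11 members all 3 knockout libraries lay above all 3 wild-type libraries (30.6%, against 14.2% of all fitted genes), and in 0 members they all lay below (against 11.9%). The median log2 fold change was 0.18 over the members and 0.00 over all fitted genes.

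**Figure D1:**
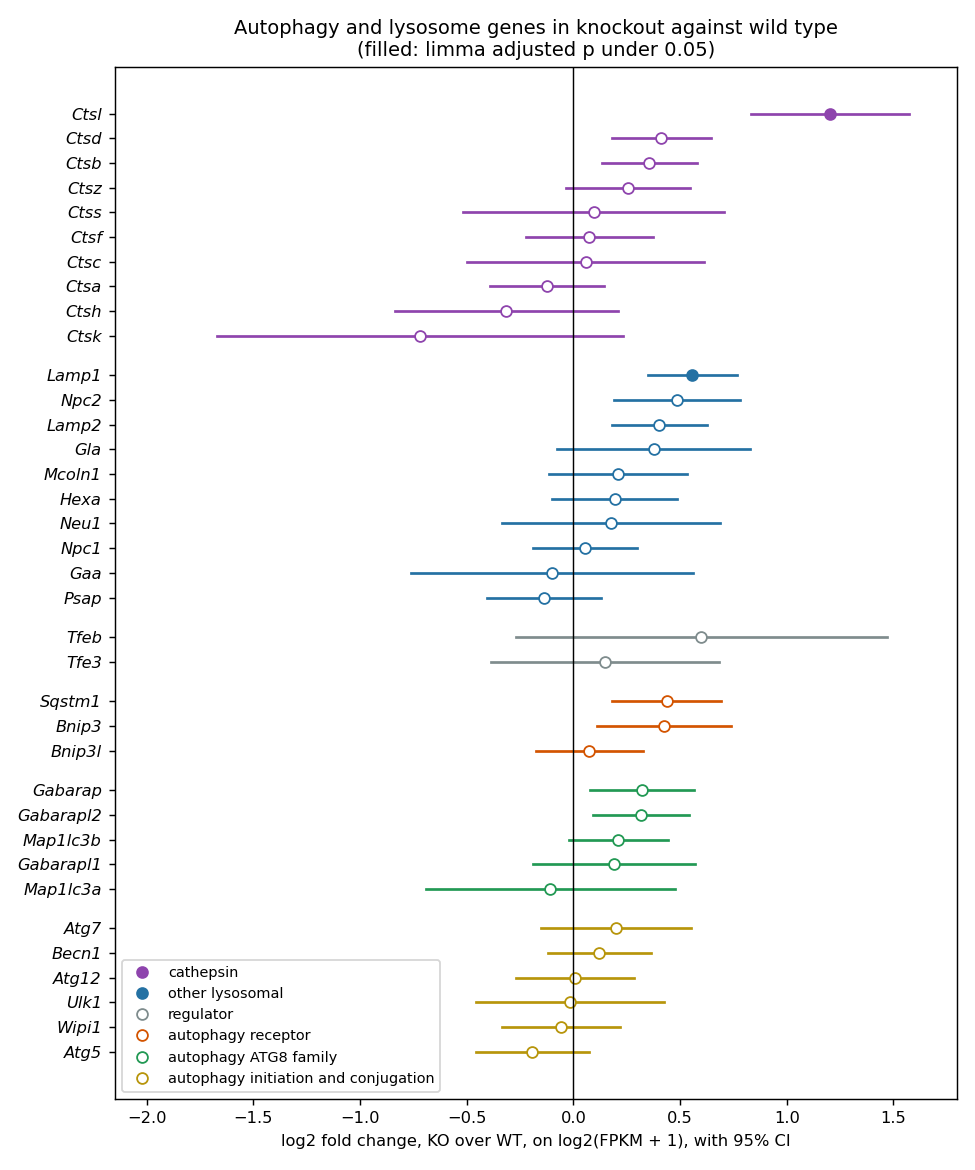
Log2 fold change of each of the 36 members in knockout against wild type (x axis, log2(FPKM + 1) scale, bars are 95% confidence intervals of limma), grouped by role and ordered by size within each role. Ctsl at 1.20 and Lamp1 at 0.56 are the 2 filled points, and the initiation and conjugation genes lie between -0.19 and 0.20.

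The medians of the groups of members are given as a description, and no test between them was run. Among the 10 cathepsins the median log2 fold change was 0.08, with 7 members above 0 and 3 below, and 3 without overlap between the groups. That median was 0.16 without knockout replicate 2, 0.18 without knockout replicate 3 and 0.10 to 0.13 without any other library. Among the 10 other lysosomal genes it was 0.20, with 8 above 0 and 2 below, and again 3 without overlap. Among the 14 autophagy genes it was 0.16, with 10 above 0 and 4 below, and 5 without overlap. Tfeb and Tfe3 stood at 0.60 and 0.15, both with overlap. Cathepsins spread most widely, between -0.72 for Ctsk and 1.20 for Ctsl. Autophagy genes kept within -0.19 and 0.44.

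Summed over members, the levels of the cathepsins, of the other lysosomal genes and of the autophagy genes did not overlap between genotypes, whereas those of Tfeb and Tfe3 together did. The cathepsins together gave 697, 674 and 669 FPKM in knockout muscle, against 499.9, 503 and 523 FPKM in wild-type muscle, a 1.34-fold difference of the means. Ctsd alone was 66.3% to 69.9% of that sum in the knockout and 65.7% to 72.6% in the wild type. The share of Ctsl was 9.20% to 11.5% in the knockout and 4.91% to 7.44% in the wild type. The other lysosomal genes summed to between 641 and 660.2 FPKM in the knockout and between 541 and 589 FPKM in the wild type (1.17-fold). Their sums averaged 653 FPKM in the knockout and 559 FPKM in the wild type. Lamp1 alone averaged 300 and 203 FPKM, so it differed by about as much as the whole sum. The autophagy genes summed to between 1075 and 1113 FPKM in the knockout and between 853 and 928 FPKM in the wild type (1.22-fold). These sums follow the few most abundant genes, and no test was run on them. Sums of the further lysosomal, autophagy and regulator lists described below also lay wholly higher in the knockout, whereas those of the vacuolar ATPase list overlapped. The higher sums came mostly from called genes, and the list medians were 0.01, -0.02 and 0.09 (log2). Lysosomal sums averaged 808 FPKM (knockout) and 585 FPKM (wild type), with Cst3 at 458 and 251 FPKM. Autophagy sums averaged 1271 and 1159 FPKM, with Fam134b at 252 and 145 FPKM. Regulator sums averaged 332 and 265 FPKM, with Fnip1 at 87.6 and 50.8 FPKM and Ppp3ca at 80.7 and 46.9 FPKM.

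The members without overlap were mostly the abundant ones. Of the 10 members with the highest mean over all libraries, each at 70.4 FPKM or more, 8 had every knockout library above every wild-type library; the exceptions were Psap and Map1lc3a. Of the other 26 members 3 did so, Ctsl, Lamp2 and Npc2. Among all fitted genes at or above 70.4 FPKM, 28.6% lay wholly higher in the knockout and 7.91% wholly lower.

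Cathepsin L, a cysteine protease whose gene is a known marker of muscle atrophy, showed the largest log2 fold change of any member. Ctsl was at 76.1, 77.2 and 61.6 FPKM in knockout muscle, against 37.2, 29.5 and 25.7 FPKM in wild-type muscle. Every knockout library thus lay well above the highest wild-type library. Ctsl rose 2.33-fold, to 71.6 ± 8.73 FPKM in the knockout against 30.8 ± 5.85 FPKM in the wild type (SD, n = 3 each), a log2 fold change of 1.20 ± 0.16 (limma adjusted p = 0.0182). Its q-value was 0.00119 by the authors' deposited table. Without wild-type replicate 2 or knockout replicate 1 the adjusted p of limma was 0.0906 and 0.0630, at log2 fold changes of 1.18 and 1.16.

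Cathepsin D, the main aspartic protease of the lysosome, had the highest level of all members. Ctsd was at 474, 447 and 468 FPKM in knockout muscle, against 328, 337 and 380 FPKM in wild-type muscle. The groups did not overlap, yet Ctsd did not pass, at a log2 fold change of 0.41 ± 0.10 (1.33-fold, limma adjusted p = 0.0702). Ctsb, which encodes another abundant cysteine protease, gave 76.8, 79.8 and 80.5 FPKM in knockout muscle, against 65.2, 63.7 and 56.1 FPKM in wild-type muscle. Here too the groups stayed apart without a call, at 0.36 ± 0.09 on the log2 scale (1.28-fold, limma adjusted p = 0.0939).

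Cathepsin K, a protease that digests collagen and is best known from osteoclasts, lay lower on average. Ctsk was at 6.85, 9.34 and 2.24 FPKM in knockout muscle, against 10.7, 11.2 and 7.27 FPKM in wild-type muscle. The groups overlapped, and knockout replicate 3 was far below the other knockout libraries. The authors' deposited table called Ctsk lower (q-value 0.0480, means 1.58-fold lower in the knockout), whereas limma did not (log2 fold change -0.72 ± 0.41, adjusted p = 0.384); leaving out knockout replicate 3 gave a log2 fold change of -0.23. That library was also the lowest of the 6 for the collagen gene Col1a1. Col1a1 was at 24.7, 40.2 and 12.9 FPKM in knockout muscle, against 28.7, 43.0 and 65.3 FPKM in wild-type muscle. The 6 fibroblast markers summed to 423, 444 and 288 FPKM in knockout muscle, against 596, 421 and 479 FPKM in wild-type muscle, none of them at 0, and limma called 0 of 6 (unadjusted p under 0.05 for 1), whereas the authors' deposited table called Col1a1 and Col1a2 lower. The part of fibroblasts in the level of Ctsk was not tested; in whole muscle, fewer cells of a type and less RNA per cell cannot be told apart.

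The remaining cathepsins overlapped between the groups. Ctsz, a carboxypeptidase, was at 14.3 to 16.9 FPKM in the knockout and 11.8 to 14.8 FPKM in the wild type, with a log2 fold change of 0.25 (95% interval -0.04 to 0.54). Ctsa, the protective protein that stabilises neuraminidase and galactosidase, was at 11.6 to 13.7 FPKM in the knockout and 12.3 to 14.7 FPKM in the wild type (-0.13, interval -0.39 to 0.14). Ctsf, a cysteine protease, was at 9.56 to 12.9 FPKM in the knockout and 9.83 to 10.7 FPKM in the wild type (0.08, interval -0.22 to 0.37). The intervals of Ctsa, Ctsf and Ctsz all include 0, and that of Ctsz reaches least below it.

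Ctsc, Ctsh and Ctss are abundant in macrophages and other immune cells. Ctsc was at 16.1, 13.2 and 8.67 FPKM in knockout muscle, against 12.9, 13.9 and 9.07 FPKM in wild-type muscle. Ctsh was at 4.78, 3.96 and 3.98 FPKM in knockout muscle, against 8.23, 4.84 and 4.09 FPKM in wild-type muscle, of which replicate 1 alone was high. Ctss varied more in the knockout, at 4.42, 2.34 and 6.19 FPKM, than in the wild type, at 3.61, 3.68 and 3.95 FPKM. Their log2 fold changes were 0.06, -0.31 and 0.09, with limma adjusted p of 0.927, 0.494 and 0.886. The 15 macrophage markers summed to between 54.6 and 91.0 FPKM in the knockout and between 81.0 and 87.3 FPKM in the wild type. Of the 12 that were fitted, limma called 0, with 0 at an unadjusted p under 0.05, and the authors' deposited table called 0; no marker was at 0 in every library. Lyz2, the most abundant of them, was at 22.9 to 45.1 FPKM in the knockout and 36.9 to 50.6 FPKM in the wild type, and Cd68 at 2.21 to 4.79 FPKM in the knockout and 1.66 to 3.18 FPKM in the wild type. The part of macrophages in the levels of these 3 cathepsins was not tested.

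**Figure D2:**
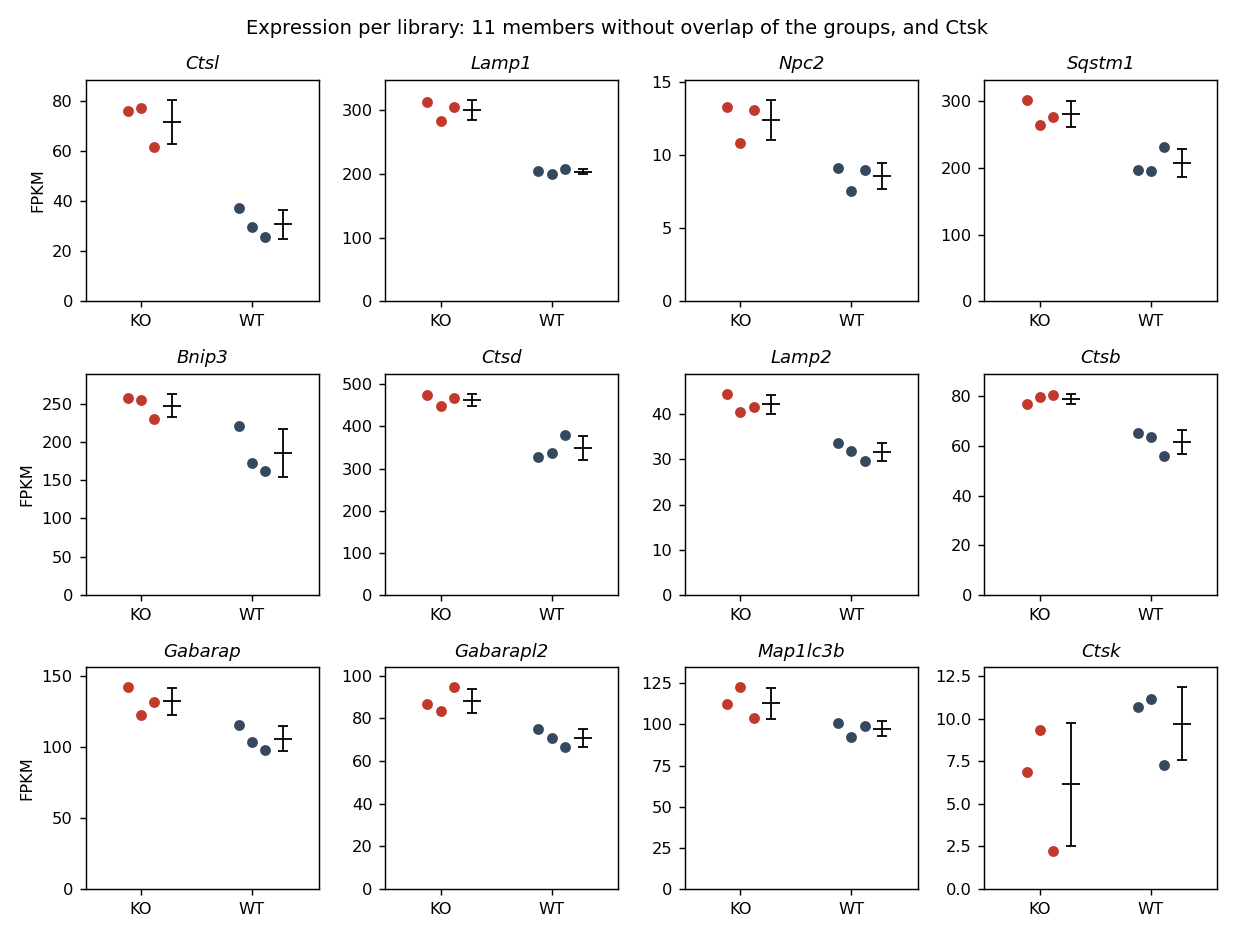
FPKM per library (y axes start at 0, n = 3 libraries per group, bars are mean and SD) in knockout (KO, left) and wild type (WT, right) for the 11 members without overlap, ordered by log2 fold change, and for Ctsk. Every knockout point lies above every wild-type point except in Ctsk, where the groups overlap and 1 knockout library is at 2.24 FPKM.

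LAMP1 and LAMP2 are the major glycoproteins of the lysosomal membrane, and LAMP2 is also needed for autophagosomes to fuse with lysosomes. Lamp1 was at 313, 282 and 305 FPKM in knockout muscle, against 204, 199.7 and 207 FPKM in wild-type muscle. The wild-type libraries lay within a few FPKM of each other and far below the knockout. Lamp1 rose 1.47-fold, a log2 fold change of 0.56 ± 0.09 (limma adjusted p = 0.0230, q-value 0.00729 in the authors' deposited table). Its call was kept in 1 of the 6 fits that leave a library out: without wild-type replicate 3 the adjusted p was 0.0476, and without any other single library it was 0.0523 to 0.115, at log2 fold changes of 0.53 to 0.60. Lamp2 was at 44.6, 40.4 and 41.6 FPKM in knockout muscle, against 33.6, 31.8 and 29.6 FPKM in wild-type muscle. The groups were separate, but Lamp2 did not pass in either test (1.33-fold, 0.40 ± 0.09 on the log2 scale, limma adjusted p = 0.0664, q-value 0.0734 in the authors' deposited table).

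NPC1 and NPC2 hand cholesterol out of the lysosome, NPC2 as the soluble carrier and NPC1 in the membrane. Npc2 was at 13.3, 10.8 and 13.1 FPKM in knockout muscle, against 9.12, 7.52 and 8.98 FPKM in wild-type muscle. The authors' deposited table called Npc2 as risen (1.45-fold, q-value 0.0234), and limma did not (0.49 ± 0.13 on the log2 scale, adjusted p = 0.0894). Npc1 was at 18.1, 21.6 and 18.9 FPKM in knockout muscle, against 19.1, 17.7 and 19.2 FPKM in wild-type muscle. Its groups overlapped, with a log2 fold change of 0.06 (95% interval -0.19 to 0.30). The difference between these partner genes was not itself tested.

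Psap encodes the precursor of the saposins, which help to degrade sphingolipids, and was the most abundant member with a log2 fold change below 0. It was at 182, 235 and 209 FPKM in knockout muscle, against 226, 224 and 236 FPKM in wild-type muscle. Its log2 fold change was -0.14 (95% interval -0.41 to 0.13), so the interval leaves out a rise of the size seen for Lamp1. Of the glycosidases, Gla (alpha-galactosidase) was at 2.51 to 3.67 FPKM in the knockout and 1.58 to 2.92 FPKM in the wild type, Hexa (beta-hexosaminidase) at 24.7 to 31.0 FPKM in the knockout and 23.3 to 27.6 FPKM in the wild type. Neu1, the sialidase, was at 3.36 to 3.37 FPKM in the knockout and 1.75 to 3.98 FPKM in the wild type. Mcoln1, which encodes the lysosomal calcium channel TRPML1, was at 6.33 to 8.34 FPKM in the knockout and 5.34 to 6.70 FPKM in the wild type. All of these overlapped, with log2 fold changes of 0.38 for Gla, 0.19 for Hexa, 0.18 for Neu1 and 0.21 for Mcoln1 and limma adjusted p of 0.337 to 0.708.

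Gaa, the acid glucosidase that degrades glycogen in the lysosome, varied more among the wild-type libraries than between the genotypes. It was at 23.4, 29.97 and 28.6 FPKM in knockout muscle, against 20.5, 25.5 and 47.2 FPKM in wild-type muscle. Wild-type replicate 3 was thus more than 1.5 times any other library. The same library was over 1.5 times the next wild-type library in 4 members in all, Gaa, Tfeb, Tfe3 and Map1lc3a. Tfeb was at 13.6, 20.3 and 18.5 FPKM in knockout muscle, against 7.10, 8.54 and 21.6 FPKM in wild-type muscle. Every knockout library lay above wild-type replicates 1 and 2, and all lay below wild-type replicate 3. Tfeb was not called (1.41-fold, 0.60 ± 0.37 on the log2 scale, limma adjusted p = 0.427). Without wild-type replicate 3 the fold was 2.24, but without wild-type replicate 1 or 2 it was 1.16 or 1.22. The adjusted p of limma ranged from 0.0538, without wild-type replicate 3, to 0.714 over the fits that leave a library out. Tfe3, its relative, was low throughout, at 1.49, 1.74 and 2.74 FPKM in knockout muscle, against 1.21, 1.46 and 2.44 FPKM in wild-type muscle (limma adjusted p = 0.781).

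**Figure D3:**
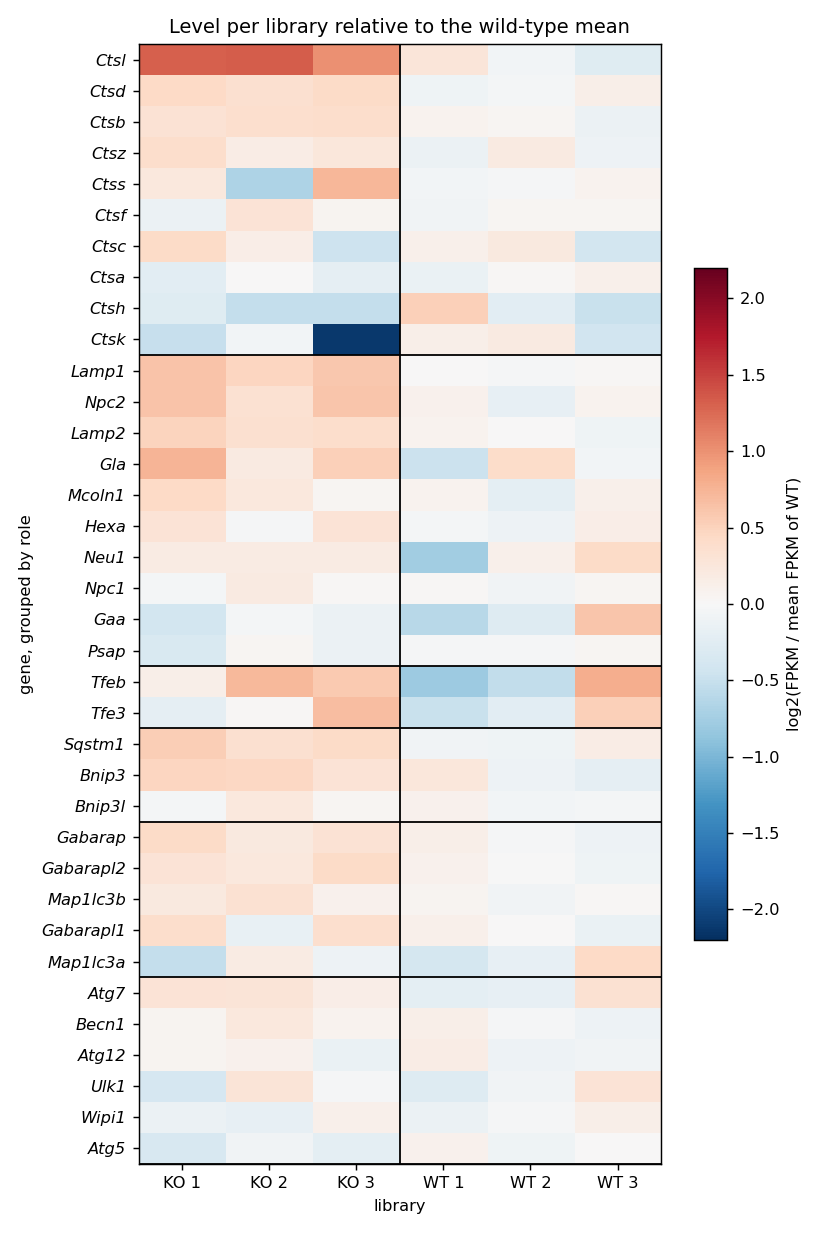
Level of each member (rows, grouped by role: cathepsins, other lysosomal, regulators, receptors, LC3 and GABARAP family, initiation and conjugation) in each library (columns), as log2 of FPKM over the wild-type mean. Members above 0 in all 3 knockout libraries include Ctsl, Lamp1, Npc2, Lamp2, Sqstm1 and Bnip3, and also members whose groups overlap, such as Becn1 and Atg7. Wild-type replicate 3 is high in Tfeb, Gaa, Tfe3 and Map1lc3a.

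Since TFEB and TFE3 act through an E-box, the promoters of the members were read for its letters. The windows run from 250 bases before to 50 after each start, from RefSeq on build GRCm38.p6. Of the 36 members 29 were matched by symbol; Atg12, Becn1, Bnip3l, Ctsb, Ctsh, Map1lc3a and Npc1 were not. The core CACGTG reads the same on both strands and occurred in 11 of the 29 members (37.9%), against 8.09% of all 27025 genes with a window. The longer form TCACGTGA, which contains the core, occurred in 4 members, Ctsa, Ctsd, Gla and Mcoln1 (13.8%, against 1.12% of all genes). The 10-letter form, the core with GT before it and AC after it, occurred in 0 members, against 0.37% of all genes. The core held in 4 of the 10 matched members whose knockout libraries all lay higher (Bnip3, Ctsd, Ctsl and Lamp1) and in 7 of the 19 matched members whose groups overlapped. The genes compared were not limited to those fitted in muscle, and a gene with several windows counted if any held the letters. No test of these shares was run. These are matches of letters, not measured binding, and the core is also the sequence of the E-box used by the circadian activators BMAL1 and CLOCK. The windows of the 2 called genes, of Ctsd and Bnip3, and of Mcoln1 and Gla for comparison are shown 5′ to 3′ on the strand of the gene, with the core in capitals.
Lamp1: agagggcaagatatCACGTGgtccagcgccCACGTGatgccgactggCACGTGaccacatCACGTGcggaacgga
Ctsl: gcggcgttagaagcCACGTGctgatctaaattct
Ctsd: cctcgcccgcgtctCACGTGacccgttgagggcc
Bnip3: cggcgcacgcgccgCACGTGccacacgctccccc
Mcoln1: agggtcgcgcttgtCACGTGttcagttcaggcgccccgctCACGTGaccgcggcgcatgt
Gla: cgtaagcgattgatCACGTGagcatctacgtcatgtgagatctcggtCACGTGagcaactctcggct
The Lamp1 window lies at chr8:13159086-13159160 on the plus strand and holds 4 cores, 61, 45, 28 and 15 bases before the start. The Ctsl core lies 236 bases before the start (window chr13:64370737-64370770, minus strand). In Ctsd the core shown lies 98 bases before the start (window chr7:142387906-142387939, minus strand) and another lies at 245 bases. The single core of Bnip3 lies 108 bases before its start (window chr7:138909595-138909628, minus strand). Mcoln1 has cores at 71 and 45 bases (window chr8:3500434-3500493, plus strand) and Gla at 227 and 194 bases (window chrX:134601180-134601246, minus strand), and neither gene was called.

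**Figure D4:**
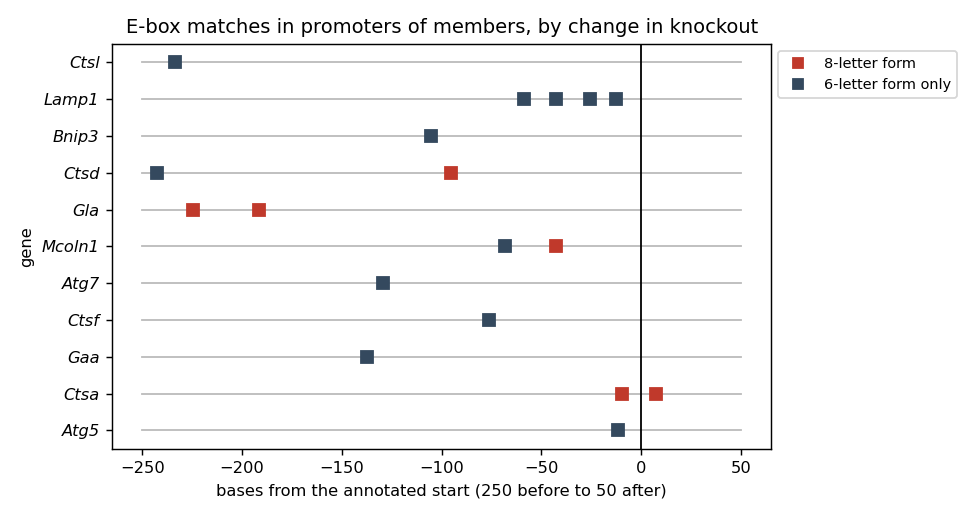
Position of each CACGTG match (squares) relative to the annotated start (x axis, bases) in the 11 members that hold one, ordered from top to bottom by log2 fold change in knockout against wild type. Red squares are matches within the 8-letter form, in Ctsd, Gla, Mcoln1 and Ctsa, and Lamp1 alone holds 4 matches.

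Among autophagy receptors, Sqstm1 encodes p62, which binds ubiquitinated cargo and is itself degraded by autophagy. Sqstm1 was at 302, 264 and 277 FPKM in knockout muscle, against 197, 195 and 232 FPKM in wild-type muscle. The lowest knockout library stood above the highest wild-type library. The authors' deposited table called Sqstm1 as risen (1.35-fold, q-value 0.0352), and limma did not (0.44 ± 0.11 on the log2 scale, adjusted p = 0.0804). BNIP3 and BNIP3L are related receptors on the outer mitochondrial membrane. Bnip3 was at 258, 255 and 230 FPKM in knockout muscle, against 221, 173 and 163 FPKM in wild-type muscle. The groups did not overlap and neither test called it (1.33-fold, 0.43 ± 0.13 on the log2 scale, limma adjusted p = 0.142, q-value 0.0529 in the authors' deposited table). Bnip3l was at 24.0, 29.0 and 25.4 FPKM in knockout muscle, against 26.4, 23.8 and 24.0 FPKM in wild-type muscle, with a log2 fold change of 0.08 (95% interval -0.18 to 0.33).

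The LC3 and GABARAP proteins are the ubiquitin-like molecules attached to the autophagosome membrane. Gabarap was at 142, 123 and 132 FPKM in knockout muscle, against 115, 104 and 98.0 FPKM in wild-type muscle. Gabarapl2 was at 86.7, 83.5 and 94.5 FPKM in knockout muscle, against 75.1, 70.6 and 66.4 FPKM in wild-type muscle. Map1lc3b was at 112, 122 and 104 FPKM in knockout muscle, against 101, 92.1 and 98.9 FPKM in wild-type muscle. In all 3 genes the knockout libraries lay wholly above the wild-type libraries by a small margin, with folds of 1.25, 1.25 and 1.16 and limma adjusted p of 0.148, 0.129 and 0.30. Gabarapl1 overlapped, at 28.4 to 41.7 FPKM in the knockout and 29.0 to 34.5 FPKM in the wild type (0.19 on the log2 scale, interval -0.19 to 0.57). Map1lc3a was at 61.2, 100.2 and 82.3 FPKM in knockout muscle, against 67.6, 78.1 and 119.6 FPKM in wild-type muscle. Its log2 fold change of -0.11 (interval -0.69 to 0.47) had the widest interval of the family. How reads shared between these related genes were assigned is not stated in the labels.

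The genes that start the autophagosome and run the conjugation system showed no call in either test, and all 6 overlapped between the groups. Across all fitted genes limma called 3.65% in either direction, and 26.1% had no overlap between the groups. By q-value, 10.8% of the genes tested by the authors were called in either direction. Most genes were thus uncalled and overlapping, and this count does not set these 6 apart from the rest. Becn1, which encodes Beclin 1 of the lipid kinase complex, was at 34.3, 38.7 and 34.9 FPKM in knockout muscle, against 36.02, 32.4 and 30.6 FPKM in wild-type muscle. Wipi1, whose product binds the lipid made by that kinase, was at 19.1, 18.6 and 22.6 FPKM in knockout muscle, against 19.2, 20.6 and 23.0 FPKM in wild-type muscle. Their log2 fold changes were 0.12 (95% interval -0.12 to 0.36) for Becn1 and -0.06 (interval -0.34 to 0.22) for Wipi1. Ulk1, the initiating kinase, was at 5.50 to 8.62 FPKM in the knockout and 5.83 to 8.68 FPKM in the wild type (-0.01, interval -0.46 to 0.43). Atg12, the ubiquitin-like partner of ATG5, was at 13.3 to 15.8 FPKM in the knockout and 13.8 to 16.6 FPKM in the wild type (0.01, interval -0.27 to 0.28). Atg5 was at 7.22 to 8.82 FPKM in the knockout and 8.67 to 9.83 FPKM in the wild type (-0.19, interval -0.46 to 0.07). Atg7, the activating enzyme, was at 3.39 to 3.80 FPKM in the knockout and 2.64 to 3.86 FPKM in the wild type (0.20, interval -0.15 to 0.55). On this scale the upper ends of all 6 intervals lie below the 0.56 of Lamp1, that of Atg7 only just (0.55). Because the scale understates changes of low genes, the interval of Atg7 does not leave out the fold seen for Lamp1.

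Further genes linked to the lysosome or to autophagy were read from lists of their own. Of 43 genes in the lysosomal list, which also holds genes for cathepsin inhibitors such as Cst3, 41 were fitted. Limma called 2 higher (4.88%, against 2.30% of all fitted genes) and 1 lower (against 1.34%). Of the 2 called higher 1 was Cst3, whose product is secreted. Lgmn encodes legumain, an asparaginyl endopeptidase that processes cathepsins. It rose 2.42-fold, at 40.1, 35.4 and 38.6 FPKM in knockout muscle, against 16.9, 13.4 and 16.9 FPKM in wild-type muscle (limma adjusted p = 0.00688), and kept its call when any 1 library was left out (adjusted p 0.0217 to 0.0448). Cst3, cystatin C, a secreted inhibitor of cysteine cathepsins, rose 1.82-fold, at 461, 514 and 400 FPKM in knockout muscle, against 221, 231 and 302 FPKM in wild-type muscle (limma adjusted p = 0.0297). A protease of the cathepsin pathway and an inhibitor of it were thus both called higher. Ostm1, a subunit of the lysosomal chloride exchanger, fell to 10.9, 10.9 and 10.8 FPKM in knockout muscle, against 18.2, 17.0 and 14.5 FPKM in wild-type muscle (limma adjusted p = 0.0411). Cst3 and Ostm1 kept their calls without wild-type replicate 3 but lost them without any other library (adjusted p 0.0771 to 0.134 for Cst3 and 0.0917 to 0.168 for Ostm1) and without the filter on low values (0.0549 and 0.0610). The authors' deposited table called 3 of 34 higher (8.82%, against 5.90%) and 2 lower (5.88%, against 4.94%), which adds the sorting receptor gene Sort1 as higher (1.59-fold, q-value 0.00119) and the tripeptidyl peptidase gene Tpp1 as lower (1.45-fold, q-value 0.0252). The median log2 fold change of this list was 0.01.

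The vacuolar ATPase pumps protons into the lysosome. Of its 16 listed subunit genes limma called 1 (6.25%, against 2.30% of all fitted genes), Atp6v0e2, which rose 1.69-fold, at 27.6, 33.8 and 27.9 FPKM in knockout muscle, against 19.1, 18.0 and 15.8 FPKM in wild-type muscle (adjusted p = 0.0264). Atp6v0e2 kept its call without wild-type replicate 1 and lost it without any other library (adjusted p 0.0599 to 0.110). Atp6v1h was called as risen in the authors' deposited table alone (1.52-fold, q-value 0.0127, limma adjusted p = 0.126). The other subunits were not called, and the list's median was 0.08. The list's lowest log2 fold change, -1.62 for Atp6v0c, came from 28.5 FPKM in wild-type replicate 3, with 0.0211 FPKM or less in the other 5 libraries. How reads of Atp6v0c were assigned is not stated, so these values are not read as absence of the gene's RNA.

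Of 45 further autophagy genes limma called 1 (2.22%, near the 2.30% of all fitted genes), Fam134b, a receptor for autophagy of the endoplasmic reticulum. It rose 1.74-fold, at 261, 205 and 290 FPKM in knockout muscle, against 136, 135 and 164 FPKM in wild-type muscle (adjusted p = 0.0383), and the list's median was -0.02. Fam134b kept its call without knockout replicate 2 and lost it without any other library (adjusted p 0.0538 to 0.157) and without the filter on low values (0.0651). Stbd1, whose product binds glycogen and is known as a receptor for its autophagy, had the largest log2 fold change of the list. It was at 11.95, 2.37 and 2.93 FPKM in knockout muscle, against 18.7, 26.4 and 22.1 FPKM in wild-type muscle. All knockout libraries lay below all wild-type libraries, and knockout replicate 1 lay closest to them. The authors' deposited table called Stbd1 lower (3.90-fold, q-value 0.00119), and limma did not (-2.06 ± 0.47 on the log2 scale, adjusted p = 0.0633). With each library left out in turn its adjusted p ranged from 0.0103, without knockout replicate 1, to 0.207. The log2 fold changes of Stbd1 in these fits were -2.67 to -1.70. The authors' deposited table also called Fam134b, Epg5 (1.38-fold) and Trp53inp1 (1.42-fold) higher, so 3 of 44 were higher (6.82%, against 5.90%) and 1 lower (2.27%, against 4.94%). Limma called neither Epg5 (adjusted p = 0.113) nor Trp53inp1 (0.480), and in Trp53inp1 the groups overlapped.

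Of 14 further regulators 13 were fitted and limma called 2, both higher (15.4%, against 2.30% of all fitted genes). Ppp3ca encodes the catalytic subunit of calcineurin, a phosphatase that acts on TFEB. It rose 1.72-fold, at 82.7, 83.1 and 76.4 FPKM in knockout muscle, against 46.9, 45.0 and 48.8 FPKM in wild-type muscle (adjusted p = 0.0127), and lost its call without wild-type replicate 2 (0.0849) or knockout replicate 1 (0.0584). Fnip1, a partner of folliculin in nutrient sensing at the lysosome, rose 1.73-fold, at 93.5, 73.9 and 95.5 FPKM in knockout muscle, against 46.6, 56.0 and 49.8 FPKM in wild-type muscle (adjusted p = 0.0264). Fnip1 kept its call without knockout replicate 2 and lost it without any other library (adjusted p 0.0642 to 0.109). The authors' deposited table called 5 of 12 higher (41.7%, against 5.90%), which adds the transcription factor genes Foxo1 (1.59-fold), Foxo3 (1.66-fold) and Zkscan3 (1.45-fold). ZKSCAN3 is known as a repressor of autophagy genes and the FOXO factors as activators in muscle. In Foxo1 and Foxo3 the groups overlapped, with knockout replicate 1 within the wild-type range of Foxo1 and below that of Foxo3, and limma did not call these 3 genes (adjusted p = 0.416 for Foxo1, 0.429 for Foxo3 and 0.124 for Zkscan3). The 8 muscle fibre markers, none at 0, summed to between 60674 and 74443 FPKM in the knockout and between 62851 and 72972 FPKM in the wild type, and limma called 0 of them (0 at an unadjusted p under 0.05, and 0 in the authors' deposited table).

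**Figure D5:**
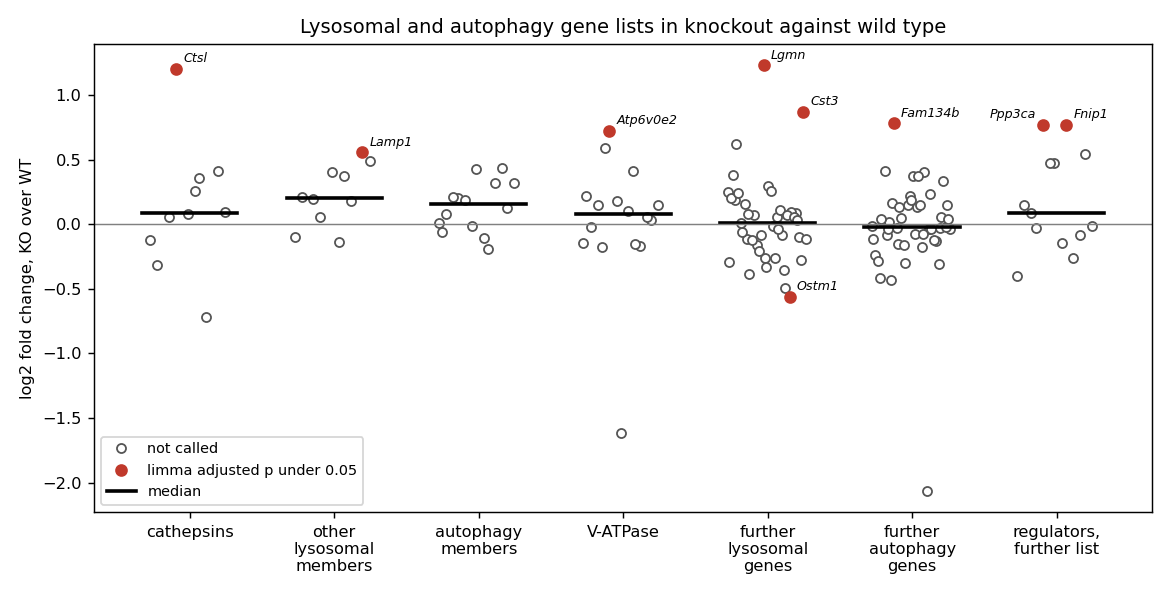
Log2 fold change in knockout against wild type (y axis) of each fitted gene in the 3 groups of members and in 4 further lists; filled points passed limma at an adjusted p under 0.05 and thick bars are medians. Called genes lie above 0 except Ostm1, and the medians lie between -0.02 and 0.20.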

How the data were processed

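RNA-seq of quadriceps muscle gave 1 deposited table with FPKM per library and, per gene, a p-value and a q-value of the authors' comparison. Per the submitters' processing notes the authors made it with TopHat2 and Cuffdiff on mm9. For versions, annotation, strandedness and library normalization nothing is stated. The 2 deposited HDAC3 peak lists are on mm9 and the gene positions used here on GRCm38, so peaks were not tied to genes; the other ChIP-seq, input and GRO-seq libraries were not analysed here.

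Each library's group and number were read from its title. FPKM were tested as log2(FPKM + 1) with limma 3.58.1 (R 4.3.3), with a mean-variance trend, two-sided, and Benjamini-Hochberg adjustment over the 10501 of 24354 genes with a mean of at least 1 FPKM over all libraries. The scale understates changes of low genes. The fit was tested on simulated data. Relative depth is the most frequent ratio among genes under 0.3 FPKM and includes any scaling by Cuffdiff; no counting interval is given. The members, lists and tests were chosen with earlier results of these data known, so lists are described by counts and medians, with no test. All members are named. Values per library are given for members called in either test, for those without overlap and a fold of at least 1.3, and for the 2 most abundant of each class; other members were shown by choice. In the further lists, genes called by limma are named, those called in the deposited table alone were added after their values were seen, and the marker gene Emr1 was read as Adgre1. Neutrophil, endothelial and adipocyte markers were also listed: limma called 0 of them, with 0 at an unadjusted p under 0.05, and the authors' deposited table called 3 neutrophil markers lower. Alternatives were another pseudocount, 2 other filters, another scaling, a replicate block, each library left out and the deposited q-values.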

Additional observations from a re-analysis of the deposited data

How the results depend on the processing

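Log2(FPKM + 0.1), restriction to the genes the authors tested and median-of-ratios scaling left 2 members called higher and 0 lower, and without a filter on low values they were also 2 and 0, while 152 genes in all were called higher against 242 and the further lysosome and autophagy genes called lower went to 0 against 1. By the deposited q-values 543 genes were higher and 455 lower, against 242 and 141 by limma; members were 4 higher and 1 lower, and the further genes 13 higher and 3 lower against 6 and 1. With the replicate number as a block, 23 genes were called higher and 13 lower, with 1 member higher (Ctsl; Lamp1 had an adjusted p of 0.0779) and the further genes at 1 higher and 0 lower. Same-numbered libraries correlated in their deviations by 0.037 to 0.052, under the 0.1 taken to show pairing, although each library correlated best with its own number. With each library left out in turn, genes called ranged from 13 to 133 higher and 6 to 75 lower, lowest without wild-type replicate 2; members called ranged from 0 to 2 higher, and further genes from 1 to 4 higher and 0 to 1 lower. Member medians ranged from 0.097 to 0.176 for cathepsins (0.085 with all libraries), 0.160 to 0.311 for other lysosomal genes and 0.110 to 0.156 for autophagy genes. The sign turned for 11 members when some library was left out, none of them called by either test, and for Atg12 alone under the other settings. Depth limits the lowest members, Tfe3, Gla and Neu1.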
